A study of Mus musculus with 9 samples.

Results

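Cholesterol synthesis and its control by SREBP2 were followed through 30 genes of the 51717 measured in B16F10, a pigmented melanoma line of the mouse. The genes were taken from a given list in pathway order: 6 of the mevalonate steps, 2 that make longer prenyl chains, 3 that make and close squalene, 8 of the sterol branch, 1 sterol carrier, 6 that control SREBP2, 2 cholesterol exporters, 1 liver X receptor and 1 regulator of lipoprotein uptake. Other genes of the pathway are not analysed here. RNA was sequenced from a Sirpa knockdown line, a Sirpa overexpression line and a non-target control line, all labelled B16F10 and cultured in complete DMEM with fetal bovine serum and antibiotics. Sirpa encodes an inhibitory receptor for CD47, best known from macrophages. Each line gave 3 libraries, which the labels number as replicates without saying whether they came from separate cultures. Each condition is 1 line, so the p-values reflect variation among its libraries, which may be technical, and not among independently made lines. How Sirpa was lowered or raised, with which vector, and whether a line is a clone or a pool is not stated in the labels.

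Cells make cholesterol from acetyl-CoA through mevalonate, isoprenoid diphosphates, squalene and lanosterol. SREBP2 is a membrane-bound transcription factor that switches on most of these enzymes: SCAP carries it out of the endoplasmic reticulum when sterols are scarce, INSIG proteins hold SCAP back when sterols are plentiful, and a pair of Golgi proteases cut it free. Liver X receptors sense oxidised sterols and act in the opposite sense, switching on exporters and a ligase that removes lipoprotein receptors.

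Libraries held 16540929 to 22379203 estimated counts in the knockdown line, 17237923 to 21398211 in the overexpression line and 16404396 to 20300950 in the control line. Sirpa stood at 112 to 118 CPM (read counts scaled to a common library size with TMM factors) in knockdown libraries, 895 to 914 CPM in overexpression libraries and 289 to 303 CPM in control libraries, as the labels say. The 8 melanocyte markers were all expressed, with a summed TPM (transcript abundance corrected for length) of 14600 to 15600 in knockdown, 16100 in each overexpression and 14800 to 15000 in control libraries. Of 10 macrophage and myeloid markers, 4 had 0 counts everywhere, Ptprc and Adgre1 among them, and the 10 summed to 5.43 to 8.63, 3.58 to 4.92 and 2.5 to 4.57 TPM in the same order of lines. That sum was higher in the knockdown libraries than in the controls. Fibroblast markers summed to 23.2 to 25.3, 25.1 to 28.5 and 22.7 to 26.6 TPM in that order of lines, but single ones moved: Col1a1 averaged 1.26 TPM with knockdown and 13.3 TPM in controls, and Postn 16.7 TPM with knockdown and 6.99 TPM in controls. Endothelial markers summed to 0.433 to 0.664 TPM with knockdown and 1.93 to 3.77 TPM with overexpression, against 0.717 to 1.69 TPM in controls. These sums did not overlap, but most of each was Vwf, which averaged 0.484, 2.45 and 1.19 TPM in that order of lines. Only 1 of the 6 endothelial markers passed the filter on low counts, and Cdh5 and Kdr were at 0. Of 5 epithelial markers 4 were at 0 in every library, as were 5 of 6 T and NK markers. The part of these markers in the results was not tested. In bulk RNA, a different share of cells in some state and a different level per cell cannot be told apart.

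The pathway was well expressed in every line. The 19 synthesis enzymes summed to 2322, 2401 and 2405 TPM in knockdown libraries and to 2336, 2392 and 2390 TPM in overexpression libraries, against 1744, 1668 and 1690 TPM in control libraries. The perturbed lines overlapped each other in this sum, and both lay above every control library. Fdps, which makes farnesyl diphosphate, was the most abundant member at 773 ± 12 TPM with knockdown, 718 ± 7.6 TPM with overexpression and 523 ± 6.5 TPM in controls (SD, n = 3 each). In controls it was followed by Insig1 at 180 ± 3.0 TPM, and then by Msmo1, Cyp51, Dhcr7 and Srebf2, from 159 to 126 TPM, each of which overlapped its neighbour in this order. The next 4, Acat2, Hmgcs1, Insig2 and Sqle, lay within 94.4 to 93.7 TPM and could not be ordered. At the low end stood Hsd17b7 at 10.6 ± 1.0 TPM, Mylip at 7.84 ± 0.55 TPM and Abca1 at 1.5 ± 0.22 TPM, none of which overlapped its neighbours. Abcg1, a cholesterol exporter, had 0 counts in all 9 libraries, which allows up to 0.135 to 0.184 CPM per library (3 counts of the total, counting error only). It was the only member of the 30 that did not pass the filter on low counts.

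**Figure D1:**
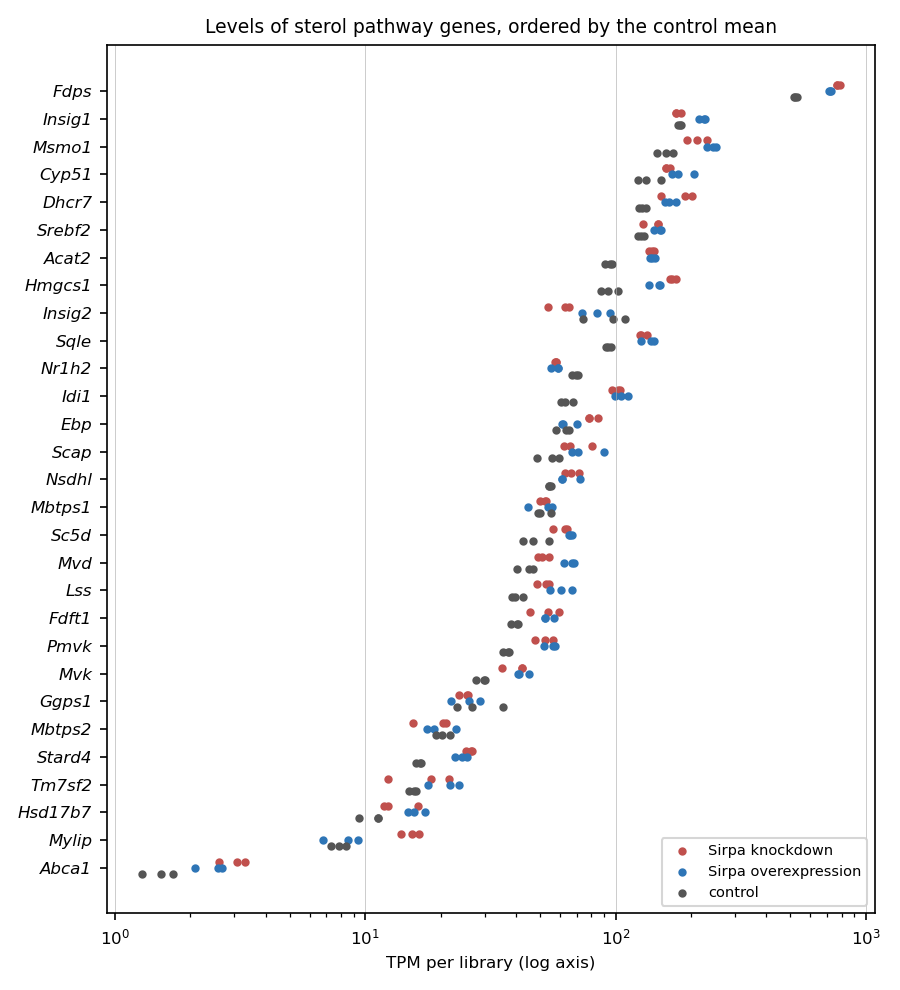
Level of each detected member in TPM per library on a log axis, ordered by the control mean, with red points for knockdown, blue for overexpression and grey for control libraries. Fdps lies above all other members in every library, and Abca1, at 1.5 TPM in controls, below them.

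Most members were higher in both perturbed lines than in control. With knockdown 20 of 29 tested members were higher and 3 lower (edgeR's quasi-likelihood test, Benjamini-Hochberg adjusted p under 0.05 over 13064 genes), beside 18.0% of all tested genes higher and 17.4% lower (35.4% either way). With overexpression 22 were higher and 2 lower, beside 13.1% and 11.1% of all genes (24.3% either way). The median log2 fold change of the members was 0.30 with knockdown and 0.42 with overexpression, while that of all tested genes was −0.01 and 0.00. The changes were modest in size, from −0.56 to 0.90 with knockdown and from −0.35 to 0.63 with overexpression. The comparisons share the 3 control libraries, so the control values enter both. Of the members 18 were called higher in both, beside 8.74% of all tested genes. Lower in both were 2 (Insig2 and Nr1h2), beside 6.66% of all tested genes, which is near that share. Insig1 was lower with knockdown and higher with overexpression, as were 0.536% of all tested genes. Between the perturbed lines 6 members were higher with overexpression and 2 lower, beside 11.0% and 11.1% of all genes (22.1% either way), with a median of 0.06. Separation of all libraries of 2 lines was common. In CPM, 20 of 29 tested members lay wholly above control with knockdown and 3 wholly below, beside 22.8% and 23% of all tested genes. With overexpression 23 lay wholly above and 4 wholly below, beside 20.7% and 19.7%. Overexpression lay wholly above knockdown for 8 and wholly below for 5, beside 17.9% and 18%, and the 5 are near that share.

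**Figure D2:**
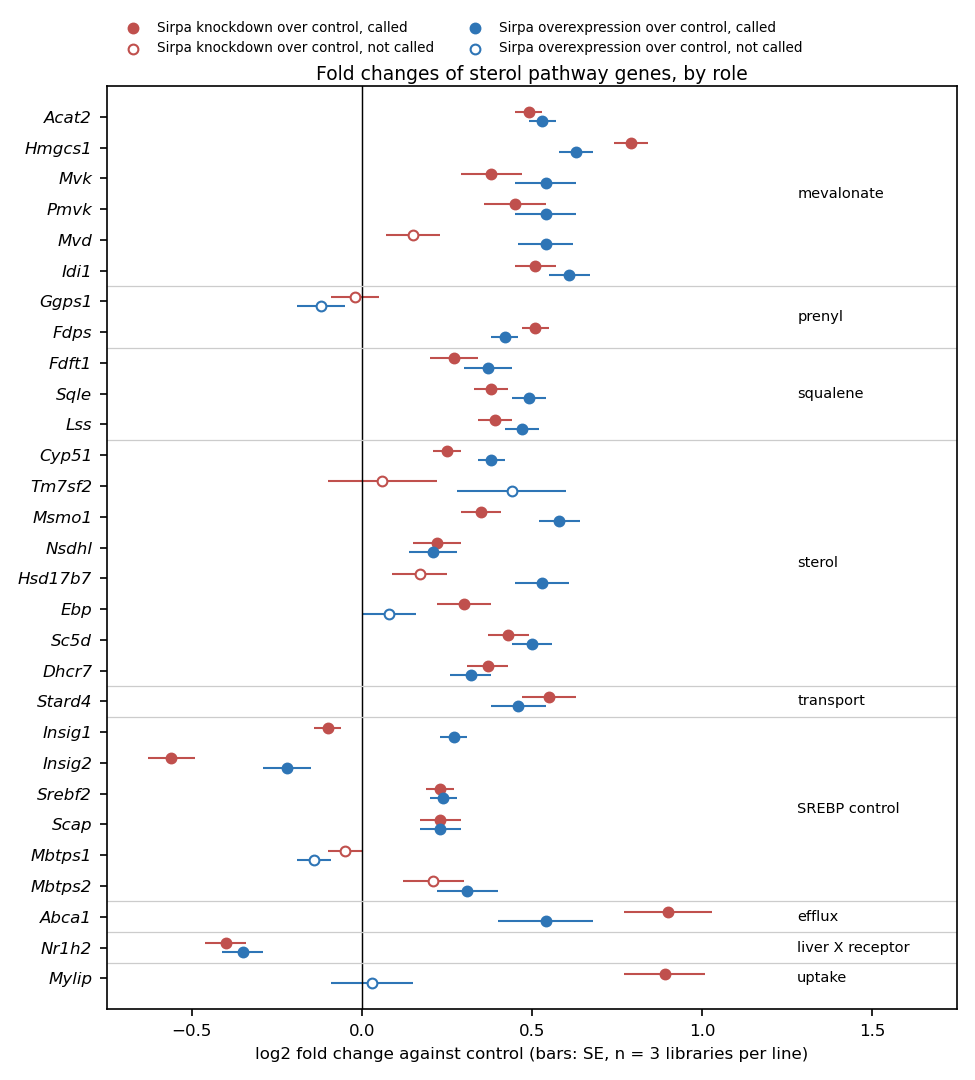
Log2 fold change of each tested member against control (points) with its SE (bars), in pathway order, with knockdown in red above overexpression in blue; filled points passed the test. Enzymes lie mostly between 0.2 and 0.6 in both lines, and the lines were called different from each other for Hmgcs1, Mvd, Cyp51, Msmo1, Hsd17b7, Insig1, Insig2 and Mylip.

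The enzymes that build mevalonate and turn it into isoprenoids rose together, all 6 with overexpression and 5 of 6 with knockdown. Of all tested genes, 13.1% were higher with overexpression and 18.0% with knockdown. Hmgcs1, which makes HMG-CoA, stood at 356, 334 and 327 CPM in knockdown libraries and at 292, 317 and 301 CPM in overexpression libraries, against 190, 195 and 202 CPM in control libraries. All 3 lines were separate from each other for this gene, with knockdown highest. It was 1.73-fold higher with knockdown (log2 fold change 0.79 ± 0.05, SE; adjusted p = 2.07e-09) and 1.55-fold higher with overexpression (0.63 ± 0.05; adjusted p = 6.19e-08). The overexpression line was lower than the knockdown line by edgeR's test (−0.16 ± 0.04; adjusted p = 0.0163), a call lost without knockdown replicate 1 or overexpression replicate 1 (adjusted p = 0.0657 to 0.073) and with a length offset, which corrects for shifts in mean transcript length between libraries (0.066).

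Acat2, the cytosolic thiolase that joins acetyl-CoA units at the entry of the pathway, had 187, 189 and 184 CPM with knockdown and 194, 190 and 196 CPM with overexpression, against 137, 136 and 128 CPM in controls. The perturbed libraries lay close together and all above control (0.49 ± 0.04 and 0.53 ± 0.04; edgeR adjusted p = 2.52e-07 and 1.92e-07). It shares 43.7% of its 31-base words with Acat3, which had at most 0.432 CPM in any library. Idi1, which isomerises isopentenyl diphosphate, rose by 0.51 ± 0.06 with knockdown and 0.61 ± 0.06 with overexpression. The kinases Mvk and Pmvk act between these steps. Mvk rose by 0.38 ± 0.09 and 0.54 ± 0.09, and Pmvk by 0.45 ± 0.09 and 0.54 ± 0.09, with knockdown and with overexpression in that order.

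Mvd, the decarboxylase that makes isopentenyl diphosphate, parted from its neighbours. It had 53.2, 56.1 and 49.7 CPM in knockdown libraries and 73.1, 66.0 and 69.6 CPM in overexpression libraries, against 49.1, 50.9 and 43.6 CPM in control libraries. In CPM only the overexpression libraries stood clear of control (0.54 ± 0.08; edgeR adjusted p = 7.32e-05). With knockdown the change was 0.15 ± 0.08 (95% interval −0.01 to 0.31; adjusted p = 0.15), and the difference between the lines passed the test itself (0.39 ± 0.08, overexpression over knockdown; adjusted p = 0.00131).

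Beyond isopentenyl diphosphate the pathway forks. Fdps, on the way to squalene, had 518, 534 and 514 CPM with knockdown and 490, 497 and 487 CPM with overexpression, against 375, 366 and 362 CPM in controls. It was higher in both lines (0.51 ± 0.04 and 0.42 ± 0.04; edgeR adjusted p = 2.01e-08 and 3.54e-07). Ggps1, which extends farnesyl diphosphate to geranylgeranyl diphosphate for protein prenylation, was not called in either line, at 44.9 ± 2.1, 42.0 ± 1.7 and 45.6 ± 0.65 CPM in knockdown, overexpression and control libraries (SD, n = 3 each). The 95% interval of its log2 change was −0.16 to 0.12 with knockdown and −0.26 to 0.03 with overexpression. In CPM all 3 overexpression libraries lay below the controls. Of 14 genes of the isoprenoid branches (dolichol, ubiquinone and protein prenylation), 0 were higher and 3 lower with knockdown, beside 18.0% and 17.4% of all tested genes, with a median of −0.01. The falls are near that share. Rabggta and Fntb, subunits of prenyltransferases, were the lower ones with the smallest p (−0.69 ± 0.15 and −0.40 ± 0.10; adjusted p = 0.00152 and 0.00477). With overexpression 0 of 14 passed edgeR's test in either direction, beside 24.3% of all genes, and the median was −0.06.

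The 3 enzymes of the squalene steps rose in both lines, beside 8.74% of all tested genes that were higher in both. Sqle, the squalene epoxidase and a flux-setting step, stood at 224, 217 and 228 CPM with knockdown and at 250, 254 and 219 CPM with overexpression, against 168, 177 and 170 CPM in controls. The perturbed groups overlapped each other and neither reached down to control (0.38 ± 0.05 and 0.49 ± 0.05; edgeR adjusted p = 3.44e-05 and 4.61e-06). Lss, which folds squalene epoxide into lanosterol, rose by 0.39 ± 0.05 and 0.47 ± 0.05. Fdft1, the squalene synthase, rose by 0.27 ± 0.07 and 0.37 ± 0.07. It overlaps the cathepsin gene Ctsb on the opposite strand over 774 bases, and the libraries do not keep strand. Ctsb rose by 0.81 ± 0.04 with knockdown and 0.78 ± 0.04 with overexpression, and its part in the values of Fdft1 was not tested.

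In the sterol branch, which trims and rearranges lanosterol to cholesterol, 6 of 8 enzymes rose in each line, though not the same 6. The shares of all tested genes that were higher were 18.0% with knockdown and 13.1% with overexpression. Msmo1, the methylsterol monooxygenase, had 257, 236 and 273 CPM with knockdown and 287, 320 and 291 CPM with overexpression, against 211, 189 and 202 CPM in controls. The lines formed 3 separate groups with overexpression on top (0.35 ± 0.06 and 0.58 ± 0.06 over control; edgeR adjusted p = 0.000215 and 2.62e-06). The gap of 0.23 ± 0.06 between overexpression and knockdown was called (adjusted p = 0.00866), but not without overexpression replicate 2 (0.0627) or with the length offset (0.0618).

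Cyp51, the lanosterol demethylase, rose by 0.25 ± 0.04 with knockdown and 0.38 ± 0.04 with overexpression, the smaller of which was not called with the length offset (0.18; adjusted p = 0.137). Its difference between the perturbed lines, 0.12 ± 0.04 (edgeR adjusted p = 0.0416), was lost without any 1 of 8 libraries (adjusted p = 0.0527 to 0.155), that is all but knockdown replicate 1, and under 4 of 11 other settings, the length offset among them (0.0546 to 0.115). The desaturase gene Sc5d rose by 0.43 ± 0.06 and 0.50 ± 0.06, and Dhcr7, the last reductase of its arm, by 0.37 ± 0.06 and 0.32 ± 0.06. Nsdhl, a sterol dehydrogenase, was called narrowly in both lines (0.22 ± 0.07 and 0.21 ± 0.07; adjusted p = 0.0296 and 0.0476). The call with knockdown was lost without knockdown replicate 2 or any 1 control library (0.0627 to 0.114), and with the length offset (0.0854). That with overexpression was lost without overexpression replicate 1, knockdown replicate 1 or 3, or any 1 control library (0.0504 to 0.3), and under 5 of 11 other settings, other scalings and the length offset among them (0.0504 to 0.155).

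The sterol branch also held genes called against control in only 1 of the lines. Hsd17b7, a ketosteroid reductase, had 33.9, 29.0 and 34.7 CPM in knockdown libraries and 42.7, 40.8 and 42.1 CPM in overexpression libraries, against 28.3, 28.1 and 30.3 CPM in control libraries. In CPM only the overexpression libraries lay clear of the rest (0.53 ± 0.08 over control and 0.36 ± 0.08 over knockdown; edgeR adjusted p = 0.000182 and 0.00419), though the length offset ended the call between the lines (0.26; adjusted p = 0.238). With knockdown the value was 0.17 ± 0.08 (adjusted p = 0.126), and it was called without knockdown replicate 2 (0.25; adjusted p = 0.0293). Ebp, the sterol isomerase, did the reverse, at 81.5, 84.3 and 69.2 CPM with knockdown and 65.5, 73.3 and 63.0 CPM with overexpression, against 63.3, 61.7 and 65.7 CPM in controls. It rose with knockdown (0.30 ± 0.08; adjusted p = 0.00708) and was not called with overexpression (0.08 ± 0.08). The difference between the lines narrowly missed the threshold (−0.22 ± 0.08; adjusted p = 0.0563), and it was called without knockdown replicate 3 or overexpression replicate 2 (0.00759 to 0.0292). DESeq2, limma-voom, no filter on low counts and the length offset also called it (0.0134 to 0.0434). Tm7sf2, a sterol reductase present at 15.5 TPM in controls, was called in neither line against control (0.06 ± 0.16 and 0.44 ± 0.16; adjusted p = 0.81 and 0.0612), and with overexpression it was called without knockdown replicate 1 or 3 (0.0201 to 0.0332), and with DESeq2, no filter on low counts or only the 2 lines compared (0.0168 to 0.0469).

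**Figure D3:**
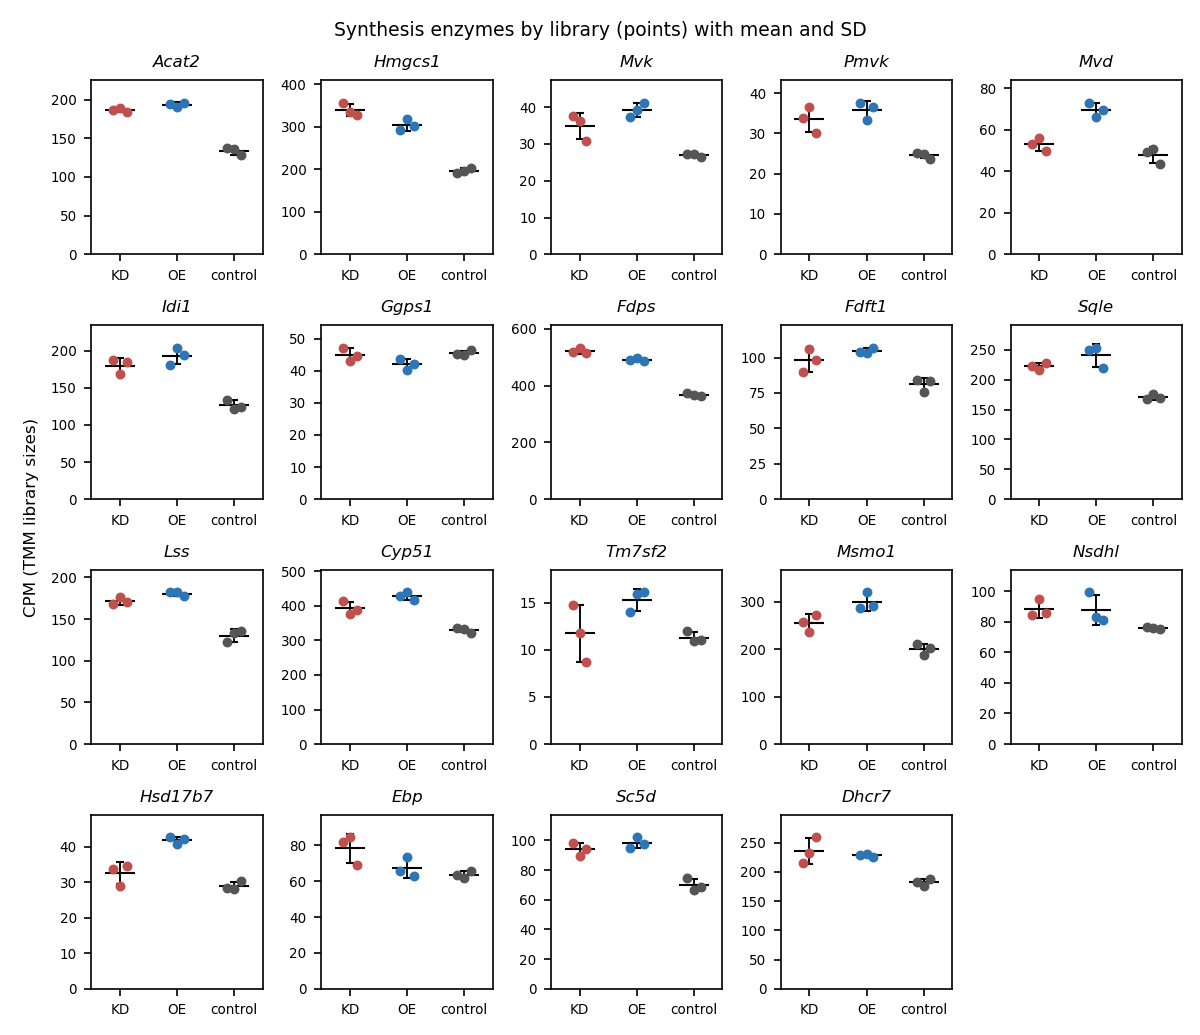
CPM of the 19 synthesis enzymes in each library (points), with the mean and SD of 3 libraries (black), for knockdown (KD), overexpression (OE) and control. In most panels both perturbed groups lie above control, while Ggps1 does not rise and Mvd and Hsd17b7 stand out with overexpression. For Ebp the knockdown libraries lie above control but overlap those with overexpression.

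Promoter sequences are shown for the enzymes with the largest rise with overexpression (Hmgcs1, Idi1 and Msmo1) and for the 2 members with the smallest adjusted p between the perturbed lines (Insig1 and Mylip), since SREBP2 acts from short elements near the start site together with the factors NF-Y and Sp1. The sequences are the 250 bases before the annotated start, 5′ to 3′ on the gene's strand, from RefSeq on GRCm38.p6. Capitals mark matches, on either strand, to TCACNCCAC (a sterol regulatory element), CCAAT (the box bound by NF-Y) or GGGCGG (the GC box bound by Sp1), each found by exact letters with matches allowed to touch. The windows are chr13:119690101-119690350 (plus strand) for Hmgcs1, chr13:8885356-8885605 (plus strand) for Idi1, chr8:64733579-64733828 (minus strand) for Msmo1, chr5:28071162-28071411 (plus strand) for Insig1 and chr13:45389492-45389741 (plus strand) for Mylip.
Hmgcs1: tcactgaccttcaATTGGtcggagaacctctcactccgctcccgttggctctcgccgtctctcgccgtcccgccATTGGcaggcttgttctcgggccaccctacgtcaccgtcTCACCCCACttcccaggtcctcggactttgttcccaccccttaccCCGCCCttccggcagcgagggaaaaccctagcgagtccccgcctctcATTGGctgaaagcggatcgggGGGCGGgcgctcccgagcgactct
Idi1: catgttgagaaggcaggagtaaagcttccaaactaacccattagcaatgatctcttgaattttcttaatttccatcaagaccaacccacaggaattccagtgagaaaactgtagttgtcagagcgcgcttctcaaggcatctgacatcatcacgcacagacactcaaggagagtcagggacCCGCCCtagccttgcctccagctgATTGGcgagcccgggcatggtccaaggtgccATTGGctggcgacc
Msmo1: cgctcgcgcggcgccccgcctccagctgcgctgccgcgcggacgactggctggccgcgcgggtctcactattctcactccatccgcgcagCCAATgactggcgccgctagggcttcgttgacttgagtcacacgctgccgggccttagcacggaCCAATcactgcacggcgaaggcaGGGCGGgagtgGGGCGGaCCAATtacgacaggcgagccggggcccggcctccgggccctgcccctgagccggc
Insig1: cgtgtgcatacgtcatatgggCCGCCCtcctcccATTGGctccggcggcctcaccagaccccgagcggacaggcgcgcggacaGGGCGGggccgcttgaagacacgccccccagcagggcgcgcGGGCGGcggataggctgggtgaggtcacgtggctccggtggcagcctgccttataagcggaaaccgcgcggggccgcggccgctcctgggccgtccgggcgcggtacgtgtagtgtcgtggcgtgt
Mylip: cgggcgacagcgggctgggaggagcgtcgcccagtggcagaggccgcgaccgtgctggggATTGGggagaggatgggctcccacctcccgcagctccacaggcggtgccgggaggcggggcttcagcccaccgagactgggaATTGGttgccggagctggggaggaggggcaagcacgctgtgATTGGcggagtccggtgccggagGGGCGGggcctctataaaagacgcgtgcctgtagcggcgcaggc

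The element TCACNCCAC lies 137 bases before the start of Hmgcs1, and these letters occur in no other member window that was found. No window was found for Fdps, Fdft1, Sqle, Stard4 or Abcg1, so these were not searched. Windows were found for 25 of the 30 members, 31 windows in all. TCACNCCAC matched 1 of them (3.23%) and 1.05% of all 32851 windows of the genome. The CCAAT box matched 19 of 31 windows (61.3%), against 33.8% of all windows and 35.6% of the 12492 windows of tested genes. The GC box matched 23 of 31 (74.2%), against 32.7% of all windows and 57.9% of those of tested genes. Counted by gene, with a match in any window, 76% of the 25 members held a CCAAT box and 84% a GC box. Of all 27025 genes, 37.5% and 35.4% did. Among 16 synthesis enzymes with a window, 15 held a CCAAT box and 14 a GC box. Ggps1, which was not called, held 3 CCAAT boxes, and Mylip 3 as well. A match of letters is a description of the sequence, not a bound site.

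The genes that sense sterols and release SREBP2 did not move as one group. Of 6, 2 rose and 2 fell with knockdown, beside 18.0% and 17.4% of all tested genes. With overexpression 4 rose and 1 fell, beside 13.1% and 11.1%, and the fall is near that share. Insig1, which retains SCAP and is itself a known SREBP target, stood at 287, 283 and 287 CPM in knockdown libraries and at 365, 371 and 366 CPM in overexpression libraries, against 313, 301 and 303 CPM in control libraries. In CPM the 3 lines did not overlap, with overexpression above and knockdown just below control. In TPM knockdown (174 to 182) overlapped control (177 to 183). Insig1 rose with overexpression (0.27 ± 0.04; edgeR adjusted p = 5.31e-05) and was 1.29-fold higher there than with knockdown (0.36 ± 0.04; adjusted p = 2.17e-06). The fall with knockdown was small (−0.10 ± 0.04; adjusted p = 0.0432), and its call was lost without any 1 of the 9 libraries (0.0632 to 0.17) and under 6 of 11 other settings (0.0503 to 0.128).

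Insig2, a close relative that holds SCAP in the same way, was lower in both lines. It had 60.2, 52.0 and 57.9 CPM with knockdown and 72.5, 75.1 and 68.1 CPM with overexpression, against 85.9, 82.7 and 82.6 CPM in controls. Again the 3 lines were separate in CPM, and knockdown was lowest (−0.56 ± 0.07; edgeR adjusted p = 8.55e-06). In TPM overexpression (73.7 to 94.7) overlapped control (74.4 to 109). The fall with overexpression was smaller (−0.22 ± 0.07; adjusted p = 0.0256) and lost its call without overexpression replicate 1 or 3 or any 1 control library (0.0534 to 0.108), and with the length offset (−0.20; adjusted p = 0.442). Both Insig genes were thus higher in the overexpression line than in the knockdown line (Insig2, 0.34 ± 0.07; adjusted p = 0.00171), though the length offset ended that call for Insig2 (0.0581).

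Srebf2, which encodes SREBP2, had 383, 427 and 395 CPM with knockdown and 403, 408 and 406 CPM with overexpression, against 337, 346 and 345 CPM in controls. In CPM all perturbed libraries lay above all controls, though in TPM knockdown (129 to 148) overlapped control (123 to 130). The perturbed lines did not differ from each other by the test (0.23 ± 0.04 and 0.24 ± 0.04 over control; edgeR adjusted p = 0.000437 and 0.000452; 0.01 ± 0.04 between them). Scap, the escort, rose by 0.23 ± 0.06 in each line (adjusted p = 0.00449 and 0.00706), at 153 CPM in both perturbed lines and 130 CPM in controls. With the length offset, the rises of Srebf2 and Scap with knockdown were no longer called (0.10 and 0.28; adjusted p = 0.225 and 0.14).

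Transcripts of Srebf2 differed in make-up as well as in sum. The full-length coding transcript made up 80.4%, 80.9% and 75.5% of the gene's TPM in knockdown libraries and 72.3%, 68.7% and 70.3% in overexpression libraries, against 68.2%, 66.4% and 63.9% in control libraries. A shorter transcript annotated as retaining an intron took 16.7%, 12.8% and 14.2% with knockdown and 22%, 24.1% and 21.7% with overexpression, against 24.4%, 29.5% and 28.0% in controls. The coding share did not overlap between any of the lines, nor did the share of the transcript with the intron, and no test was run on these shares. Summing only protein-coding transcripts gave Srebf2 a log2 fold change of 0.34 with knockdown and 0.29 with overexpression. Shares of single transcripts rest on the division of reads among similar transcripts and are less certain than gene totals.

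Of the proteases that cut SREBP2, Mbtps1 was not called in either line (−0.05 ± 0.05 and −0.14 ± 0.05; edgeR adjusted p = 0.526 and 0.0558). With overexpression it was called lower without overexpression replicate 3 (−0.19; adjusted p = 0.0267), and with DESeq2, with upper-quartile or no scaling factors and with only the 2 lines compared (0.0432 to 0.048). Mbtps2 had 40.9 ± 4.6 CPM with knockdown and 43.9 ± 2.4 CPM with overexpression, against 35.4 ± 3.5 CPM in controls (SD, n = 3 each). It was called higher with overexpression (0.31 ± 0.09; adjusted p = 0.0241), but not without overexpression replicate 3 or control replicate 2 (0.107 to 0.117), and with knockdown it was called without knockdown replicate 2 (0.29; adjusted p = 0.0236). The length offset turned its direction in both lines, to −0.17 with knockdown and −0.09 with overexpression (adjusted p = 0.403 and 0.734). Its main transcript took 48.9% to 68.4% of the gene's TPM with knockdown and 51.3% to 64.4% with overexpression, against 37.4% to 41.2% in controls, and 28.0% of its sequence words are shared with Yy2, a gene inside it. Of 10 further genes of the endoplasmic reticulum that act on INSIG, SCAP or the turnover of pathway proteins, 4 rose and 2 fell with knockdown, beside 18.0% and 17.4% of all tested genes. With overexpression 0 rose and 1 fell, beside 13.1% and 11.1%. The falls are near those shares. The ligase genes Syvn1 and Rnf145 rose with knockdown (0.25 ± 0.06 and 0.24 ± 0.06; adjusted p = 0.00589 and 0.00614) and were lower with overexpression than with knockdown (−0.25 ± 0.06 and −0.26 ± 0.06; adjusted p = 0.00928 and 0.00619). The conjugating enzyme gene Ube2g2 was lower in both (−0.41 ± 0.09 and −0.33 ± 0.09; adjusted p = 0.00293 and 0.017), and Paqr3 fell with knockdown (−0.91 ± 0.31; adjusted p = 0.031).

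**Figure D4:**
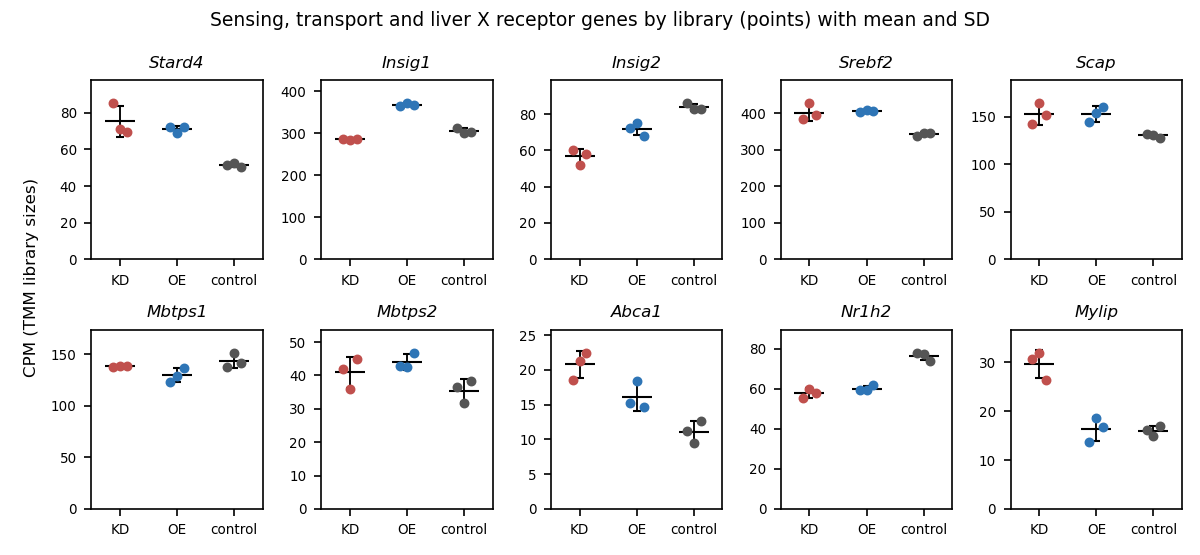
CPM of sensing, transport, efflux, receptor and uptake genes in each library (points), with the mean and SD of 3 libraries (black), for knockdown (KD), overexpression (OE) and control. Insig1 is highest with overexpression, Insig2 lowest with knockdown, Nr1h2 lower in both perturbed lines, and Mylip high with knockdown alone among the 3 lines.

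Abca1 and Mylip had the largest fold changes of the tested members with knockdown, while with overexpression those of Hmgcs1, Idi1 and Msmo1 were larger. Stard4, which carries sterols between membranes, rose in both lines, at 85.2, 71.4 and 69.8 CPM with knockdown and 72.1, 68.8 and 72.4 CPM with overexpression, against 51.7, 52.7 and 50.6 CPM in controls (0.55 ± 0.08 and 0.46 ± 0.08; edgeR adjusted p = 3.32e-05 and 0.000317). Abca1, which exports cholesterol and is a liver X receptor target, had 18.6, 21.3 and 22.4 CPM with knockdown and 15.2, 18.4 and 14.7 CPM with overexpression, against 11.2, 9.46 and 12.6 CPM in controls. In CPM the 3 lines did not overlap, in the order knockdown, overexpression, control. In TPM knockdown (2.6 to 3.3) overlapped overexpression (2.08 to 2.68). Abca1 was 1.87-fold higher with knockdown (0.90 ± 0.13; adjusted p = 7.19e-05) and 1.45-fold higher with overexpression (0.54 ± 0.14; adjusted p = 0.00847), a call that just failed without overexpression replicate 2 (0.43; adjusted p = 0.0509). The difference between the lines was not called (−0.37 ± 0.13, overexpression over knockdown; adjusted p = 0.0574). Leaving out overexpression replicate 2, knockdown replicate 1, or the second or the third control library brought it past the threshold (0.0327 to 0.0477), as did DESeq2, limma-voom and comparing only the 2 lines (0.0452 to 0.0492).

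Mylip, also a liver X receptor target, encodes a ubiquitin ligase that sends lipoprotein receptors for degradation and so limits cholesterol uptake. It stood at 30.7, 31.9 and 26.4 CPM in knockdown libraries and at 13.8, 18.7 and 16.7 CPM in overexpression libraries, against 16.1, 15 and 16.9 CPM in control libraries. The knockdown libraries were all above the rest, and the overexpression libraries spanned the controls. Mylip rose 1.86-fold with knockdown (0.89 ± 0.12; edgeR adjusted p = 2.19e-05), was at 0.03 ± 0.12 with overexpression (95% interval −0.22 to 0.29), and differed between the lines (−0.86 ± 0.12, overexpression over knockdown; adjusted p = 6.7e-05). These 2 called values held under all 20 alternative settings.

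Nr1h2, which encodes liver X receptor beta, went the other way, at 55.6, 60.2 and 58.0 CPM with knockdown and 59.3, 59.3 and 61.8 CPM with overexpression, against 77.9, 77.7 and 74.1 CPM in controls. The perturbed groups overlapped and both lay below control (−0.40 ± 0.06 and −0.35 ± 0.06; edgeR adjusted p = 9.22e-05 and 0.00058). Of 12 further liver X receptor and efflux genes 7 were expressed highly enough to test, and 2 rose and 1 fell in each line. All tested genes were called either way in 35.4% with knockdown and 24.3% with overexpression, so the knockdown count is near that share. The rises were Pltp, a phospholipid carrier of lipoproteins, and Lpcat3, which remodels phospholipids. Pltp had 29.7 ± 2.9 CPM with knockdown and 18.8 ± 2.2 CPM with overexpression, against 14.5 ± 0.18 CPM in controls (SD, n = 3 each). Its log2 fold change was 1.04 ± 0.11 with knockdown and 0.37 ± 0.11 with overexpression (edgeR adjusted p = 2.02e-06 and 0.0214). Lpcat3 rose by 0.67 ± 0.06 and 0.39 ± 0.06 (adjusted p = 5.6e-07 and 0.000272). Both were lower with overexpression than with knockdown (−0.66 ± 0.11 and −0.28 ± 0.06; adjusted p = 0.000319 and 0.00384). Smpdl3a fell in both (−0.40 ± 0.08 and −0.32 ± 0.08; adjusted p = 0.00144 and 0.00936).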

How the data were processed

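RNA of 9 B16F10 libraries, 3 per line, was sequenced as non-directional paired-end reads, per the labels' protocols. The deposited tables hold estimated counts, TPM and effective length per transcript, per the file headers. The submitters' processing notes name Salmon 1.4.0, MultiQC 1.11, DESeq2 1.34.0 and the build mm39. The read trimming and the annotation release were not given in the sources used. Salmon divides reads among similar transcripts, so genes with shared sequence are less certain.

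Transcripts were matched by identifier to GENCODE M21 (GRCm38) for gene names, strand overlap and shared words only. Of 140789 transcripts 137161 (97.42%) matched, and the rest, 0.554% to 0.654% of counts, were left out. Counts were summed per gene and rounded.

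The test was edgeR 4.0.16 (R 4.3.3): filterByExpr, TMM, 1 quasi-likelihood model of the 9 libraries by line without further covariates, 3 contrasts and Benjamini-Hochberg adjustment over 13064 genes. SEs derive from the F statistic, and 95% intervals from these. Pairs of libraries of a line differed beyond sampling noise (chi-square per degree of freedom 4.84 to 11.5). The steps were also run on simulated counts, with far fewer genes changed than were called here. That run does not speak to scaling when many genes change. All 30 members are described, and from each further list up to 2 called genes per direction and comparison with the lowest p. Members and lists were chosen with earlier results of these data known. Alternatives included limma 3.58.1, DESeq2 1.42.0, other scalings and filters, a transcript length offset and leaving out each library.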

Additional observations from a re-analysis of the deposited data

How the results depend on the processing

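Of 23 members called with knockdown 18 kept direction and call under all 20 alternatives, as did 20 of 24 with overexpression and 3 of 8 between the perturbed lines. An average transcript length offset lowered the genes called to 2794 (knockdown), 1574 (overexpression) and 1421 (overexpression against knockdown), in place of 4619, 3172 and 2887. It also left 16 members higher with knockdown and 20 with overexpression, in place of 20 and 22. With it, 1 member was lower with overexpression and 2 were higher between the lines, and Mbtps2 with overexpression turned to −0.09. The cause was not tested. Between the lines the members called lower were 5 with DESeq2 and 4 with limma-voom, in place of 2. Without single libraries, members called lower with overexpression numbered 1 to 2, and those lower between the lines 1 to 4. Replicate numbers recur in each line, and deviations of same-numbered libraries correlated at −0.09 to 0.13. These low values show no pairing, but taken over all tested genes they cannot exclude one that touches some genes. With a replicate block 4423, 2957 and 2712 genes were called, and 21 members higher and 2 lower with knockdown, 21 and 2 with overexpression and 6 and 2 between the lines. Against control the block ended the calls of Insig1 with knockdown and Nsdhl with overexpression and called Mbtps2 higher with knockdown (adjusted p = 0.048). No scaling moved the median of all genes by over 0.1. Tm7sf2, Abca1 and Mylip rest on the lowest counts of the tested members.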

Other observations

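Of 15 genes of fatty acid synthesis, many of them known SREBP1 targets, 9 rose and 0 fell with knockdown, beside 18.0% and 17.4% of all tested genes, with a median log2 fold change of 0.27. With overexpression 8 rose and 0 fell, beside 13.1% and 11.1% of all genes, with a median of 0.11. Scd1, the stearoyl-CoA desaturase, had 519 ± 7.6 CPM with knockdown and 417 ± 7.8 CPM with overexpression, against 322 ± 5.7 CPM in controls (SD, n = 3 each). It rose by 0.69 ± 0.04 and 0.37 ± 0.04 on the log2 scale (edgeR adjusted p = 5.94e-10 and 1.46e-06) and was lower with overexpression than with knockdown (−0.32 ± 0.04; adjusted p = 8.65e-06). Me1, the malic enzyme that supplies NADPH, rose by 0.57 ± 0.06 and 0.49 ± 0.06 (adjusted p = 9.87e-07 and 1.02e-05).

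Of 22 genes of sterol transport, storage and lipoprotein uptake, 6 rose and 4 fell with knockdown, beside 18.0% and 17.4% of all tested genes, and the falls are near that share. With overexpression 7 rose and 1 fell, beside 13.1% and 11.1%. Nceh1, a cholesteryl ester hydrolase, rose in both lines (0.67 ± 0.06 and 0.54 ± 0.06; edgeR adjusted p = 2.53e-07 and 5.45e-06). Gramd1a, which moves cholesterol from the plasma membrane to the endoplasmic reticulum, fell in both (−0.58 ± 0.06 and −0.32 ± 0.06; adjusted p = 8.29e-07 and 0.000498). Lrp1, a receptor for many ligands including lipoprotein remnants, had 95.9 ± 7.4 CPM with knockdown and 59.6 ± 5.6 CPM with overexpression, against 58.0 ± 3.5 CPM in controls. The lines differed for it (−0.69 ± 0.08, overexpression over knockdown; adjusted p = 1.01e-05). Npc2, the lysosomal cholesterol carrier, fell with knockdown (−0.39 ± 0.04; adjusted p = 5.42e-06).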
